A study of Homo sapiens with 4 samples.

Results

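HuR, the protein encoded by ELAVL1, binds U-rich and AU-rich stretches of RNA and is known for stabilising many short-lived mRNAs and for moving between nucleus and cytoplasm when cells are stressed. Ionising radiation is such a stress, and the question addressed here was which RNA regions were recovered with HuR in unirradiated cells but not in irradiated ones. In RNA immunoprecipitation followed by sequencing (RIP-seq), RNA is pulled down with an antibody to the protein, and a control pull-down with non-specific immunoglobulin (IgG) gives the background.

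The cells were WS1, a line of normal human skin fibroblasts, and they received either 0 Gy or 5 Gy of X-rays, with no further treatment named in the labels. Each dose had 1 HuR library and 1 IgG library, 4 libraries in all, so a group had 1 library and no difference between doses has a replicate check. The values are the authors' peaks, called for each dose as HuR over the IgG of that dose, with a position on hg19 and a score that starts at 60. The time between irradiation and harvest and the read depth were not given in the sources used here.

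The peaks described are clear peaks at 0 Gy only. They were chosen by their score and by their lack of a partner: a score of 150 or more in the 0 Gy list, and not a single base in common with any peak of the 5 Gy list. There were 3393 of them among the 47930 peaks of the 0 Gy list and the 84146 peaks of both lists together. Among the 22271 clear 0 Gy peaks (score of 150 or more), they made up 15.2%. The other 18878 clear 0 Gy peaks overlapped a 5 Gy peak and are called shared here. With the lists exchanged, the same choice gave 1168 peaks, or 6.65% of the 17569 clear 5 Gy peaks. Score, overlap and number are what chose the peaks, and they are given as a description with no test. A peak missing from a list lacks a call there. It does not show that the RNA was not bound, and fewer cells, less RNA or fewer reads at a dose cannot be told apart from less binding.

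The clear peaks at 0 Gy only lay near the lower end of the clear scores. Their median score was 200.2, with the middle part of the distribution between 169.3 (25th percentile) and 262.4 (75th percentile), whereas shared clear 0 Gy peaks had a median of 489.3. Scores under 300 were held by 82.6% of them. There were 137 with a score of 500 or more, 28 with 1000 or more and 6 with 3100 or more. Scores of 3100 are a tie shared by many of the strongest peaks of the list and have no order among themselves. At the lower limit, the 5 lowest members all had a score of 150.01 and were 406 to 628 bp long. The 5 peaks just outside, found at 0 Gy only with scores from 149.95 to 149.97, were 354 to 1035 bp long, so the limit separated peaks of nearly the same score and of similar length.

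Of the clear 0 Gy peaks scoring 150 to under 200, 38.8% had no 5 Gy partner (1689 of 4354, 95% Wilson interval 37.4 to 40.2). The share was 24.6% from 200 to under 300 (1114 of 4532), 11.5% from 300 to under 500 (453 of 3936) and 3.04% from 500 to under 1000 (109 of 3583). At 1000 or more it was 0.477% (28 of 5866, interval 0.33 to 0.689). The share without a partner was thus lower in each higher class. In the 5 Gy list the shares in the same classes were 20.1%, 9.6%, 4.19%, 0.953% and 0.0846%, lower in value than at 0 Gy in all 5 classes. These shares are made of what chose the peaks, with 1 HuR library per dose, and describe the lists alone. How the score relates to read depth was not tested, so the same minimum may be stricter in the one list than in the other. Every interval given here counts each peak as an independent unit, and the spread between cultures and immunoprecipitations is not in it.

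**Figure D1:**
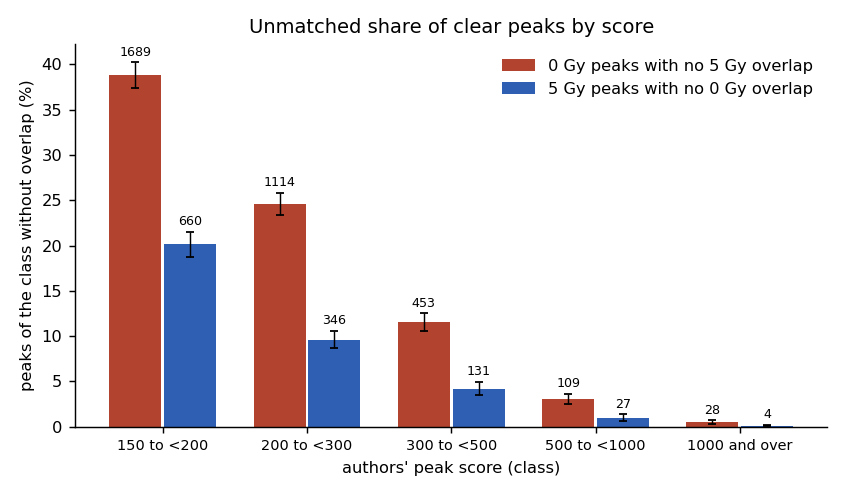
Share of clear peaks without an overlap in the other list (y axis, percent) by class of the authors' peak score (x axis), for 0 Gy peaks (red) and 5 Gy peaks (blue). Bars give the share, whiskers the 95% Wilson interval of counting error and the printed numbers count the unmatched peaks: the 0 Gy share runs from 38.8% to 0.477% and lies above the 5 Gy share in every class drawn.

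By position, the clear peaks at 0 Gy only were spread over the genome. Across the 22 autosomes and X, their share of the clear 0 Gy peaks ran from 12.3% on chromosome 22 (45 of 366) to 18.2% on chromosome 4 (184 of 1013). On chromosome 19, which had the next lowest share, it was 12.5% (114 of 910). The share is part of what chose the peaks, so this range is a description. Chromosome 1 carried the largest number, 376 of 2439. On each of the 23 chromosomes the 0 Gy list had more unmatched clear peaks than the 5 Gy list, by a factor of 1.95 (chromosome 10, 146 against 75) to 4.18 (chromosome 13, 71 against 17). Over the whole lists the factor was 2.9 (3393 against 1168), among 22271 clear peaks at 0 Gy and 17569 at 5 Gy. The counts per chromosome thus restate the difference between the lists.

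Together the clear peaks at 0 Gy only covered 2.26 Mb, or 5.97% of all sequence in the 0 Gy list. Their median length was 528 bp (95% interval from order statistics 514 to 545), with a range of 128 to 8896 bp. Shared clear 0 Gy peaks had a median of 817.5 bp and covered 24.5 Mb. Lengths were also set side by side within score classes. From 150 to under 200 the median was 496 bp for unmatched and 585 bp for shared peaks. From 200 to under 300 the medians were 579.5 and 680 bp, and from 300 to under 500 they were 588 and 796 bp. Unmatched peaks were the shorter in these 3 classes, with intervals that did not overlap. At 1000 or more the order was the opposite. The 28 unmatched peaks had a median of 3080 bp (interval 1555 to 4436) and the shared ones of 1722 bp (1642 to 1795), although these intervals overlapped. From 500 to under 1000 the medians of 1330 and 953.5 bp had overlapping intervals too.

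**Figure D2:**
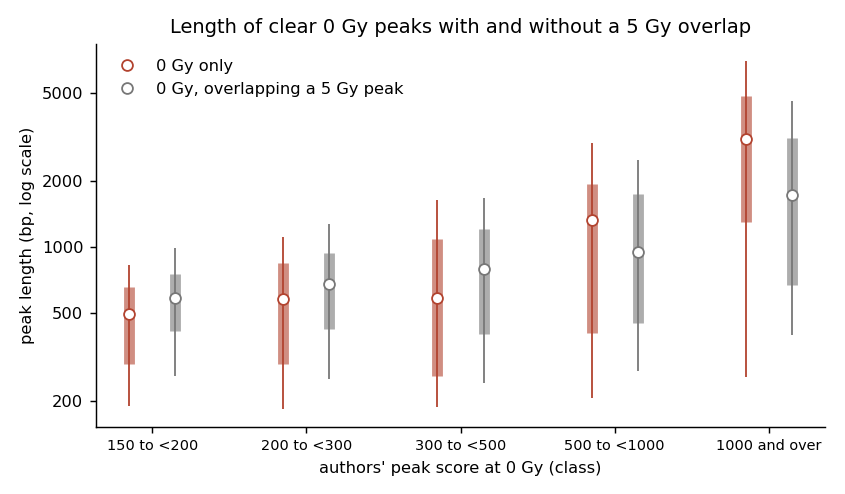
Length of clear 0 Gy peaks (y axis, bp, log scale) by class of the authors' peak score at 0 Gy (x axis), without (red) and with (grey) an overlapping 5 Gy peak. Circles are medians, thick bars run from the 25th to the 75th percentile and thin lines from the 10th to the 90th: unmatched peaks were shorter below a score of 500 (496 against 585 bp in the lowest class), and in the highest class their median was 3080 bp against 1722 bp. A shorter peak has less chance to overlap, so length is in part tied to the rule.

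The unmatched peaks held a large group of very short peaks. Of the 3393, 715 (21.1%, interval 19.7 to 22.5) were under 250 bp, compared with 1409 of the 18878 shared peaks (7.46%, 7.1 to 7.85). The excess was present in each score class, for example 20.5% against 9.12% from 150 to under 200 and 23.4% against 11.0% from 300 to under 500. It too follows in part from the rule, because a short peak has less chance to overlap. Among clear peaks at 5 Gy only, 184 of 1168 (15.8%, 13.8 to 18.0) were this short, against 5.69% of shared clear 5 Gy peaks. At the other end, 82 unmatched 0 Gy peaks were 2000 to 3999 bp long and 32 were 4000 bp or longer. Those 32 made up 0.943% of the unmatched peaks, whereas 5.15% of the shared ones were as long.

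The short peaks stood further from other peaks than those of 250 to 999 bp did, and many carried the same few scores. Their median gap to the nearest 5 Gy peak was 3783 bp, compared with 1602 bp for unmatched peaks of 250 to 999 bp. Their median gap to the nearest 0 Gy peak was 2723 bp, compared with 744 bp. The gap to the 5 Gy list was longer again for long unmatched peaks, with a median of 6629.5 bp at 2000 to 3999 bp and 7378 bp at 4000 bp or more. Their gaps to the nearest 0 Gy peak were 1637 and 3607 bp. A score below the tie that at least 20 peaks of the 0 Gy list had in common was found for 314 of the unmatched peaks (9.25%, interval 8.32 to 10.3) and for 195 of the shared clear peaks (1.03%, 0.898 to 1.19). Of these 314 peaks, 302 were under 250 bp. They took 14 distinct scores between 158.56 and 318.25, of which 169.84 came up 50 times and 158.56 came up 43 times. The 50 peaks with a score of 169.84 were 131 to 230 bp long. Scores under 300 were held by 82.6% of the unmatched peaks but by 32.2% of the shared clear ones. Fewer shared peaks could therefore carry such a score, and the 2 shares were not compared within score classes. Read counts per peak were not used here, and what the recurring scores stand for was not tested. The other unmatched peaks, without a recurring score, had a median length of 568 bp.

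Of the short peaks, 17 scored 500 to under 1000 and 3 scored 1000 or more. Among shared 0 Gy peaks under 250 bp, 174 also scored 1000 or more. The 3 unmatched ones were singled out after their values were seen. The first lay on chromosome 4 (44724066 to 44724294, 229 bp, score 1109.47), with the nearest 5 Gy peak 10.9 kb before it and the next one after it 2001.3 kb away. The second lay on chromosome 5 (83258992 to 83259223, 232 bp, score 1078.89), between 5 Gy peaks at 19.6 and 96.9 kb. The third, on chromosome 1 (77632365 to 77632545, 181 bp, score 1039.87), had a 5 Gy peak 2.4 kb away and another unmatched 0 Gy peak, of 189 bp and a score of 484.11, 2.7 kb before it.

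Most clear peaks at 0 Gy only were near a 5 Gy peak without touching it. The median gap was 2096 bp (interval 1933 to 2291). A 5 Gy peak lay within 100 bp for 194 of them (5.72%), within 1 kb for 1191 (35.1%, interval 33.5 to 36.7), within 10 kb for 2623 (77.3%, 75.9 to 78.7) and within 100 kb for 3255 (95.9%). Clear peaks at 5 Gy only had a median gap to the 0 Gy list of 1535.5 bp (1283 to 1775), and 42.6% (39.8 to 45.5) had a 0 Gy peak within 1 kb. They sat closer to the other list, which is also the list with more peaks. At 10 kb the share was 78.8% (76.3 to 81.0), so the intervals of the 2 doses overlapped at that distance. Peaks found at 0 Gy only with scores under 150 had a median gap of 2663 bp, longer than that of the clear ones.

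**Figure D3:**
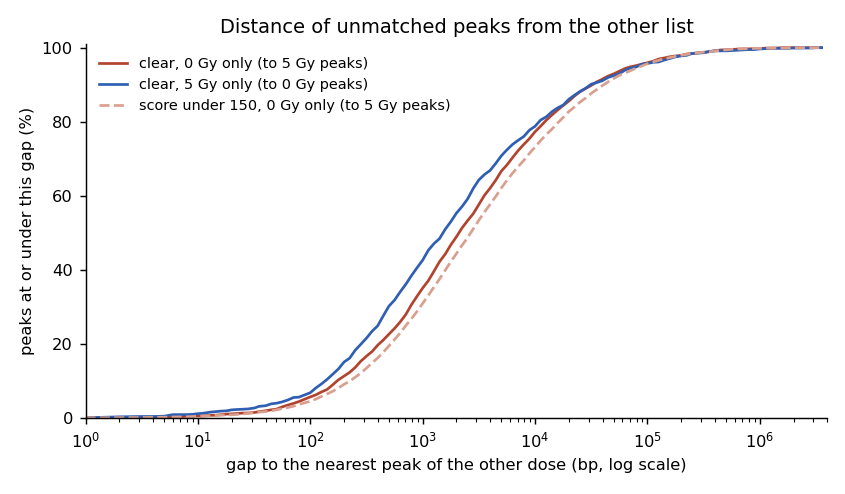
Cumulative share of unmatched peaks (y axis, percent) by the gap to the nearest peak of the other dose (x axis, bp, log scale), for clear peaks at 0 Gy only (red), clear peaks at 5 Gy only (blue) and 0 Gy only peaks scoring under 150 (dashed). The red curve passes 35.1% at 1 kb and 77.3% at 10 kb, and lies between the other 2 curves at 1 kb.

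Scores differed little with the gap to the 5 Gy list. Median scores were 197.2 for unmatched peaks within 100 bp of a 5 Gy peak, 202.7 at over 1 to 10 kb and 200.5 at over 100 kb. Peaks within 100 bp had a median length of 639 bp, and 4.64% of them were under 250 bp. At over 10 to 100 kb, the median length was 452.5 bp and 28.3% were under 250 bp. Beyond 100 kb these values were 592.5 bp and 18.1%, so neither followed the distance throughout. The nearest 5 Gy peak had a median score between 120.8 and 135 in the 4 distance classes up to 100 kb and of 165.5 beyond it. It overlapped a 0 Gy peak in 82.0% of cases within 100 bp, in 64.9% at over 10 to 100 kb and in 71.0% beyond that.

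For 1329 of the 3393 peaks (39.2%, interval 37.5 to 40.8) there was a 5 Gy peak within 10 kb on both sides, so that they stood between 5 Gy peaks. How many 5 Gy peaks lay on each side was not counted. Another 1294 (38.1%) had a 5 Gy peak on a single side within that distance, and 770 (22.7%) had none. Median lengths of these 3 kinds were 531, 544 and 487 bp. Among 5 Gy only peaks the shares were 43.8% (41.0 to 46.7), 34.9% and 21.2%. In the 0 Gy list itself, the nearest neighbour of an unmatched clear peak was a shared peak in 1677 cases (49.4%), a 0 Gy only peak scoring under 150 in 1325 (39.1%) and another clear unmatched peak in 391 (11.5%). For shared clear peaks these shares were 73.0%, 20.5% and 6.47%. In the whole list of 47930 peaks at 0 Gy, 16671 were 0 Gy only with scores under 150 and 3393 were clear unmatched peaks. No test was made of this difference, because all peaks come from the same libraries and neighbours share a locus.

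The peaks described so far were also set beside the scores of the shared peaks near them. Those scores did not enter the rule, but they come from the same libraries and often from the same locus. Choosing places without a 5 Gy call can therefore also favour lower 5 Gy scores nearby, so the values below are a description. In 17408 pairs, 1 peak of each list overlapped only the other and both scored under the tie at 3100. Over all these pairs the median log2 ratio of the 5 Gy score to the 0 Gy score was -0.32 (interval -0.34 to -0.31). Within 10 kb of a clear peak at 0 Gy only, the median of 3642 pairs was -0.42 (-0.46 to -0.38), and within 1 kb the median of 823 pairs was -0.57 (-0.66 to -0.50). The score was lower at 5 Gy in 72.8% of the pairs within 1 kb (69.6 to 75.7) and in 63.5% (62.7 to 64.4) of the 12786 pairs with no clear unmatched peak of either dose within 10 kb. Beside clear peaks at 5 Gy only, with no 0 Gy only one within 10 kb, the median of 980 pairs was -0.06 (-0.13 to 0.02).

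The ratio depends on the 0 Gy score, so it was also taken within classes of that score. From 300 to under 1000, the median log2 ratio was -1.16 (-1.34 to -0.99) for 214 pairs within 1 kb of a clear 0 Gy only peak and -0.99 (-1.05 to -0.88) for 1005 pairs within 10 kb. It was -0.72 (-0.76 to -0.67) for 3687 pairs near no clear unmatched peak and -0.47 (-0.65 to -0.35) for 210 pairs near a 5 Gy only peak. From 150 to under 300 the values within 1 kb and near no such peak were -0.85 (-0.95 to -0.70) and -0.54 (-0.58 to -0.49). From 1000 to under 3100 they were -0.93 (-1.15 to -0.74) and -0.62 (-0.66 to -0.58). Near a 5 Gy only peak these 2 classes gave -0.44 (-0.58 to -0.28) and -0.37 (-0.58 to -0.16), whose intervals met those of the pairs near none. In the 3 classes from 150 upward the median 5 Gy score of shared peaks within 1 kb of a 0 Gy only peak was further below their 0 Gy score than that of pairs near none, with intervals that did not overlap. Within 10 kb, in the class from 150 to under 300, the interval of -0.61 (-0.70 to -0.53) overlapped that of the pairs near none. From 60 to under 150, 1230 pairs within 10 kb had a median of 0.11 (0.06 to 0.15), against 0.18 (0.15 to 0.22) near none and 0.37 (0.30 to 0.48) near a 5 Gy only peak. Pairs of 1 locus are not independent, and no p-value was computed from them.

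**Figure D4:**
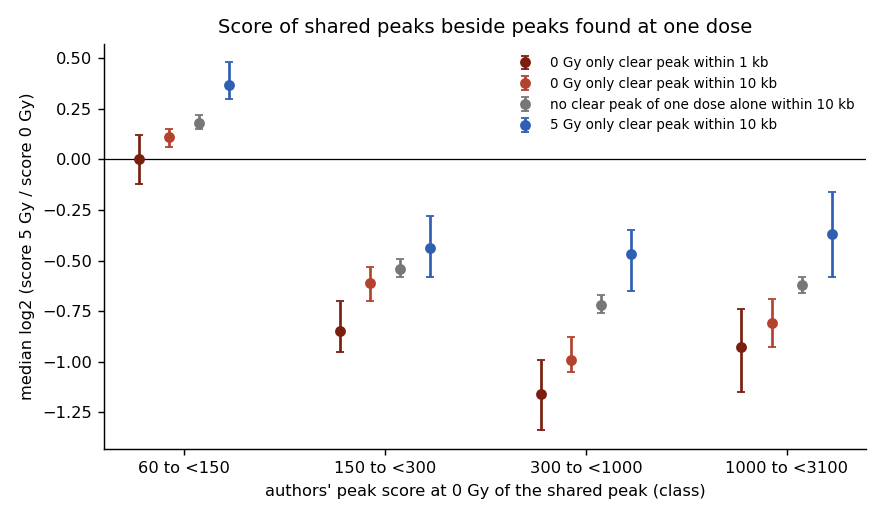
Median log2 ratio of the 5 Gy to the 0 Gy score (y axis) of shared peaks in one-to-one pairs, by class of the authors' 0 Gy score (x axis), for pairs within 1 kb (dark red) and 10 kb (red) of a clear 0 Gy only peak, near no clear unmatched peak (grey) and near a clear 5 Gy only peak (blue). Whiskers are 95% order-statistic intervals of counting error: from 300 to under 1000 the medians run from -1.16 within 1 kb to -0.72 near none and -0.47 beside 5 Gy only peaks.

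The 10 peaks of highest score show how a missing 5 Gy call looked on the genome. On chromosome 6, a pair of peaks 211 bp apart, 36562108 to 36569300 (7193 bp) and 36569512 to 36572045 (2534 bp), both tied at 3100, made up nearly all the signal called there at 0 Gy. A 336 bp peak scoring 66.71 followed 3.6 kb further on. At 5 Gy the nearest calls were a 470 bp peak of score 154.49 at 49.2 kb before the pair and a 1082 bp peak of score 274.28 at 74.4 kb after it, and both were themselves without a 0 Gy partner. The whole cluster thus had no 5 Gy call. On chromosome 17 (75088999 to 75091107, 2109 bp, score 3100), the peak stood alone at 0 Gy as well, with its nearest 0 Gy neighbours 184.9 kb before and 30.6 kb after it. The nearest 5 Gy peak was 27.7 kb away.

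Other strong peaks were single gaps among neighbours with a 5 Gy call. On chromosome 10, 71922345 to 71925090 (2746 bp, score 1871.21) and 71926778 to 71930331 (3554 bp, score 3100) lay between shared peaks on both sides. The shared 780 bp peak just before them scored 1944.64 at 0 Gy, and the 5 Gy peak there, of 825 bp, scored 436.49. The shared 567 bp peak just after them scored 216.44 at 0 Gy against 185.97 for the 553 bp peak at 5 Gy. The shared neighbour before them thus had a much lower score at 5 Gy and the one after them a similar score. On chromosome 3 (128885199 to 128889441, 4243 bp, score 1611.79), the gap lay between 5 Gy peaks of 797 bp (score 251.98, 2.0 kb before) and 1168 bp (score 280.67, 266 bp after). The 0 Gy peak after it had a score of 1011.23, above that of the 5 Gy peak.

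On chromosome 17 (28791563 to 28796409, 4847 bp, score 3142.94), 5 Gy peaks of 241 bp and 659 bp, with scores of 135.08 and 165.69, lay 12.6 kb before and 9.4 kb after the peak. The 0 Gy list held a further 3 peaks within 10 kb, of which the nearest before it scored 109.9. On chromosome 5 (14369419 to 14378314, 8896 bp, score 3100) no peak of either list lay within 10 kb. The shared 0 Gy peak 10.5 kb after it scored 360.88, and its 5 Gy counterpart 91.98. On chromosome 6 (26158336 to 26159109), the peak was short, 774 bp, with a score of 1775.22. It had a single 0 Gy neighbour within 10 kb, of score 97.17, whose 5 Gy counterpart scored 126.82. On chromosome 1 (149909493 to 149917452, 7960 bp, score 1634.18), 3 further 0 Gy peaks and no 5 Gy peak lay within 10 kb. A 5 Gy peak tied at 3100, with a shared 0 Gy peak, stood 11.6 kb before it.

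**Figure D5:**
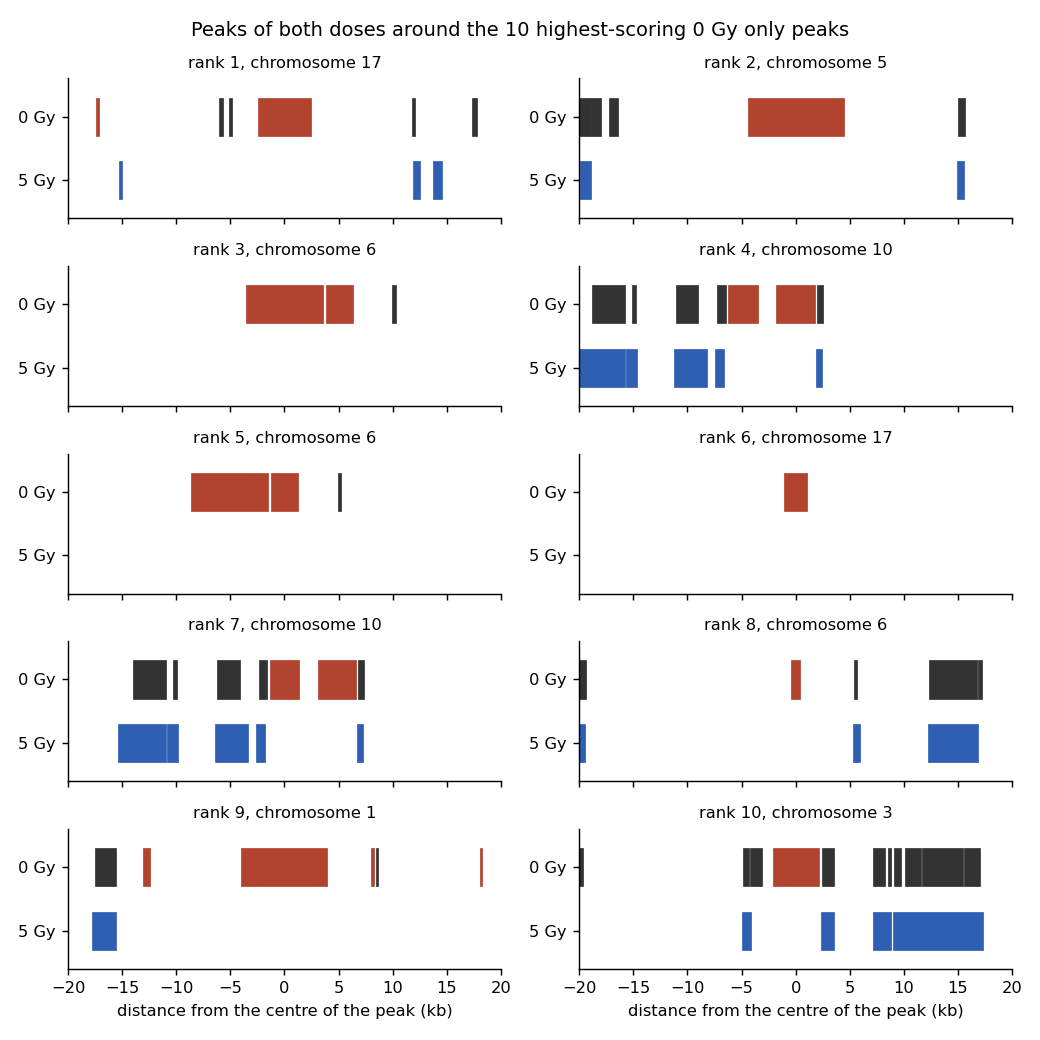
Peaks of both lists within 20 kb of the centre of each of the 10 highest-scoring 0 Gy only peaks (x axis, distance in kb), with 0 Gy peaks above and 5 Gy peaks (blue) below. Boxes are to scale along the chromosome, red marks clear 0 Gy only peaks and black other 0 Gy peaks: the windows on chromosome 6 around the pair of 7193 and 2534 bp and on chromosome 17 around the 2109 bp peak hold no 5 Gy peak, whereas on chromosomes 10 and 3 blue boxes stand on both sides of the gap.

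Of the 10 longest peaks, 3 were also among the 10 of highest score, and the others had scores down to 477.3. On chromosome 20 (3164245 to 3171663), 7419 bp with a score of 683.95 had no 5 Gy overlap although a 5 Gy peak of 519 bp and score 68.93 ended 111 bp before it. On chromosome 5 (14143346 to 14150218, 6873 bp, score 1511.43), a shared 0 Gy peak of 5916 bp and score 1711.19 began 163 bp further on, and the 5 Gy peak opposite it, 1399 bp long, scored 260.68. Both 5 Gy peaks were shorter and had lower scores than the unmatched peak beside them. On chromosome 20 the shared 0 Gy peak overlapping the 5 Gy one was 328 bp long and scored 60.06. There the 5 Gy peak was thus the longer and had the higher score of the shared pair. On chromosome 7 (94292500 to 94299027, 6528 bp, score 489.47) the nearest 5 Gy peak was 34.8 kb away, and a 289 bp 0 Gy only peak of score 114.73 lay 6.6 kb before it. On chromosome 11 (119172868 to 119178824, 5957 bp, score 1051.16) the neighbouring 0 Gy peak, 2015 bp long with a score of 306.49 and 655 bp away, was unmatched too, with 23.9 kb to the nearest 5 Gy peak. On chromosome 3 (120043400 to 120048778, 5379 bp, score 678.51), another unmatched clear peak of 1644 bp and score 332.63 followed after 9 bp. On chromosome X (119560018 to 119565350, 5333 bp, score 1599.91), a shared peak tied at 3100 in both lists lay 4.9 kb after it. On chromosome 1 (214522035 to 214528435, 6401 bp, score 477.3), a 524 bp 5 Gy peak of score 69.93 without a 0 Gy partner stood 2.4 kb after the peak.

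Clear peaks at 0 Gy only came partly in groups, although 72.8% had no other such peak within 10 kb. Joined within 10 kb, the 3393 peaks formed 2876 loci, of which 2470 held 1 peak, 328 held 2 and 78 held at least 3. The 1168 clear peaks at 5 Gy only formed 1080 loci, of which 11 held at least 3 and the fullest held 4. That set is smaller, which by itself makes groups rarer. How shared clear 0 Gy peaks group under the same joining was not computed. The 78 loci spanned 2.5 to 42.9 kb with a median of 8.4 kb. Within their spans the 0 Gy list had 412 peaks, which were 267 clear unmatched peaks, 71 unmatched peaks under 150 and 74 shared peaks, and the 5 Gy list had 99 peaks. In 34 of the 78 there was no 5 Gy peak at all, and 36 held at least 1 shared 0 Gy peak. Since a span begins and ends at an unmatched peak, these counts follow in part from how the loci were made.

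The fullest locus held 8 clear 0 Gy only peaks over 11.2 kb of chromosome 17 (62647290 to 62658468). They were 392 to 2339 bp long and scored 157.19 to 909.93, with 1 further 0 Gy peak of score 146.48 between them, and covered 8.61 kb. The 5 Gy list had no peak in this span. In the 10 kb on either side there were 8 shared 0 Gy peaks and 6 5 Gy peaks. On the side before it, a single 5 Gy peak of 3119 bp scored 1108.48, and lay over 3 separate 0 Gy peaks scoring 94.7, 444.17 and 103.98. Further before it, a 1146 bp 0 Gy peak scored 345.72 and its 5 Gy counterpart 126.63. The shared peaks beside the locus thus differed in both directions. After it, a 579 bp 5 Gy peak of score 131.88 began 118 bp beyond the last 0 Gy peak and had no 0 Gy partner.

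On chromosome 7 (93507835 to 93519659), 6 clear 0 Gy only peaks covered 8.7 kb of 11.8 kb, with scores from 201.83 to 1038.14. No 5 Gy peak lay in the span, and a single one, with a score of 118.27 and opposite a 0 Gy peak of 136.75, lay within 10 kb. On chromosome 15 (64662218 to 64668276), 5 peaks of like size, 661 to 912 bp with scores of 156.04 to 233.56, covered 3.74 kb of a 6.1 kb interval without a 5 Gy peak. Here the surroundings were full at both doses, with 6 0 Gy and 9 5 Gy peaks within 10 kb. A 7937 bp 0 Gy peak before it scored 2314.78, and its 7686 bp counterpart at 5 Gy scored 1119.91. After the last member, a clear 5 Gy only peak of 1304 bp began 108 bp on and scored 307.9, above all 5 members. The 5 Gy peak that followed scored 312.57 and lay over shared 0 Gy peaks of 256.43 and 214.97. After these, the order was the opposite: a 2503 bp 0 Gy peak of 1513.3 lay against 5 Gy peaks of 375.18, 586.07 and 98.37. On chromosome 1 (86039811 to 86044065), 4 peaks stood nearly end to end over 4.3 kb with scores of 298.88 to 628.78. Just before them, a 5 Gy peak of 80.79 lay over a 0 Gy peak of 74.46, and another of 87.41 had no 0 Gy partner. Further before, a 1526 bp 5 Gy peak of 412.62 lay over 0 Gy peaks of 76.49, 67.13 and 87.7. The last of these also met a 5 Gy peak of 72.31.

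In other loci unmatched and shared peaks were mixed. On chromosome 15 (37368149 to 37386057), 6 unmatched peaks scoring 173.35 to 718.93 stood among 2 shared ones. One of the shared peaks, of 2175 bp, scored 819.46 at 0 Gy and lay against 3 short 5 Gy peaks, the highest of which scored 104.41. Beyond the span, a shared 0 Gy peak of 5366 bp scored 1724.81 against 1878.94 for the 4897 bp peak at 5 Gy, so that neighbour scored alike at both doses. On chromosome 12 (6682049 to 6709188), 5 unmatched peaks with scores up to 503.7 shared a 27.1 kb span with 6 shared 0 Gy peaks. The strongest of these, 2943 bp long, scored 1643.69 at 0 Gy, and the 2902 bp 5 Gy peak there scored 477.45. The opposite order was seen where a 1897 bp 5 Gy peak of score 194.19 lay over shared 0 Gy peaks of 107.46 and 131.58. On chromosome 3 (88190816 to 88212790), the 4 unmatched peaks reached a score of 714.47, and the shared 2152 bp peak among them scored 1463.2 at 0 Gy against 354.94 at 5 Gy for a peak of nearly the same length, 2178 bp. Just before the first member the order was the opposite, with a shared 0 Gy peak of 73.01 against a 2336 bp 5 Gy peak of 360.96. The other shared pairs there scored 133.82 against 78.42 and 127.39 against 76.33, lower at 5 Gy.

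The widest locus, on chromosome 1 (149900429 to 149943352, 42.9 kb), was that of the 7960 bp peak described above. Its other 5 members were 165 to 618 bp long, and a 180 bp 5 Gy peak of score 165.95 without a 0 Gy partner lay within the span. On chromosome 11, 2 of the 10 fullest loci lay close together, from 59361032 to 59378081 and from 59406493 to 59426931, with 5 members each. Their scores ran from 164.85 to 390.19 in the first and from 184.41 to 329.13 in the second. The 5 Gy list had 1 peak of 164 bp (score 85.59) in the first span and 2 peaks, scoring 138.89 and 95.05, in the second. The shared peak after the first locus scored 228.01 at 0 Gy and 276.36 at 5 Gy, so that neighbour was not lower at 5 Gy.

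At the other extreme, 138 of the 3393 peaks (4.07%) lay over 100 kb from any 5 Gy peak. Their median score was 200.5, close to that of all 3393, and their highest 994.98. Of these peaks 59 had no other 0 Gy peak within 100 kb either, 49 had one within 10 kb, and 25 were under 250 bp. The farthest was a pair on chromosome 18, 6912079 to 6913690 (1612 bp, score 227.46) and 6913729 to 6915549 (1821 bp, score 274.49), separated by 38 bp and 1497.0 kb from the nearest 5 Gy peak. Next came a 1679 bp peak on chromosome 3 (85552400 to 85554078, score 270.53), 1433.4 kb away, with a weaker 0 Gy peak of score 106.23 beside it. On chromosome 5, 3 of the 10 farthest followed each other at gaps of 10.8 and 95.0 kb (123972635 to 123973386, 123984151 to 123984799 and 124079821 to 124080853) and scored 154.45, 156.17 and 183.31. The pair on chromosome 18 and the peak on chromosome 3 thus had another 0 Gy call within 1 kb. On chromosome 5 the peaks scoring 154.45 and 156.17 had no other 0 Gy peak within 10 kb.

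The peak on chromosome 18 (26836755 to 26836955, 201 bp, score 251.6) and that on chromosome 13 (72249429 to 72249641, 213 bp, score 275.89) were short, with the nearest 0 Gy peak 1078.7 and 1032.7 kb away. On chromosome 20 (56063745 to 56064199, 455 bp, score 382.31) the nearest 0 Gy peak was 820.6 kb away. On chromosome 4 (127484668 to 127485007, 340 bp, score 266.22) a 297 bp 0 Gy peak of score 61.73 lay 645 bp after it. The 10 farthest peaks scored between 154.45 and 382.31, so none of them was among the strong peaks.

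The clear peaks at 5 Gy only were fewer and had a longer median, 687 bp (652 to 714), with a median score of 189.6. Of the 1168, 4 scored 1000 or more and 4 were 4000 bp or longer. The highest, on chromosome 20 (31442601 to 31446726, 4126 bp, score 3100), had no other peak of either list within 10 kb. The next, on chromosome 10 (95660480 to 95662334), scored 1179.28, and those on chromosome X (68060074 to 68061971), 4 (122615267 to 122617306) and 11 (88067219 to 88070390) scored 1035.81, 1012.85 and 871.15.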

How the data were processed

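Sequencing reads were trimmed with cutadapt 1.9.1 and aligned with Bowtie2 2.2.4 to hg19, per the submitters' processing notes. The deposited files are 2 peak lists, and their score is the authors' own value per peak, with no strand, gene or read count. Peak names begin with MACS, per the deposited lists. Neither the caller's version nor the score's definition is stated in the labels or the lists.

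Peaks were compared in Python 3.11.15 (numpy 2.4.6, pandas 2.3.3, scipy 1.17.1), with starts counted from 1 and strand ignored. Overlap was 1 bp or more. Overlaps and gaps were checked on simulated lists against a direct search and bedtools 2.31.1. Shares have 95% Wilson intervals and medians 95% order-statistic intervals. Loci were peaks joined within 10 kb. Named were the 10 peaks of highest score, the 10 longest, the 10 farthest from a 5 Gy peak and the 10 loci with the most peaks, with 5 peaks on each side of the score limit of 150 and the 5 highest-scoring of the 5 Gy only peaks. The comparison of neighbouring pairs, recurring scores, flanks and short peaks was added after the lists were seen. The choice of peaks and all rules were made with earlier results of these data known. No hg19 genome or gene annotation was used here, so the planned gene names, region classes, sequence content, gene lists and cell type markers were not analysed.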

Additional observations from a re-analysis of the deposited data

How the results depend on the processing

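Over 11 settings, all 56 recomputed values of 6 results were compared with those reported, and 38 moved outside the counting interval (for numbers of peaks or loci, by over 1.5 times). The number of clear peaks at 0 Gy only (3393) was 7800 at a score of at least 100, 963 at 250 and 28 at 1000. It was 7162 when 50% of each peak had to overlap, 2202 with a 5 Gy peak within 1 kb counted as shared, 5307 against 5 Gy peaks scoring at least 100 and 2162 with 0 Gy peaks within 1 kb joined first. Their share of clear 0 Gy peaks (15.2%) was, in the same order, 25.4%, 6.33%, 0.477%, 32.2%, 9.89%, 23.8% and 13.0%. It was 14.4% with a 5 Gy peak within 100 bp counted as shared and 17.2% without scores of 3100 or more. The median length (528 bp) was 453.5, 648 and 3080 bp at scores of at least 100, 250 and 1000, 665.5 bp with the 50% rule, 483 bp with the 1 kb rule and 559 bp against 5 Gy peaks of at least 100. The median gap (2096 bp) was 2329 and 4916 bp at scores of at least 250 and 1000, 0 bp with the 50% rule, 2474 and 5305.5 bp with the 100 bp and 1 kb rules, 3639 bp against 5 Gy peaks of at least 100 and 4862 bp with joined peaks. The share with a 5 Gy peak within 10 kb (77.3%) was 64.3% at scores of at least 1000, 89.2% with the 50% rule, 65.0% with the 1 kb rule, 68.8% against 5 Gy peaks of at least 100 and 66.0% with joined peaks. The 2876 loci were 5640, 900 and 26 at scores of at least 100, 250 and 1000, and 4849 with the 50% rule. These moves follow from how each setting selects peaks. No paired analysis was possible because no group holds more than 1 library. Without read depths, it cannot be said how many calls each dose could have given.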
